A study of Sus scrofa with 2 samples.

Results

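Transcripts of the S100 proteins and of lipocalin 2 were followed in the hippocampus of piglets of the Rongchang breed, in 1 control sample and 1 sample from iron dextran treatment. The set was 10 gene symbols, LCN2, S100A1, S100A4, S100A6, S100A8, S100A10, S100A11, S100A13, S100A16 and S100B, and its members were the rows whose Ensembl pig gene ID carried one of them. Of these 10, 7 had an ID among the 25322 in the table, and S100A13, S100A16 and S100B had none and were not analysed here. The members were chosen by their FPKM values in both samples, so their levels and differences are a description and carry no test.

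Both groups were piglets whose genotype is labelled "wide type", and they differed by the agent, named as control or as iron dextran, a complex of iron with a sugar polymer that is injected against iron deficiency. The sources used here do not give the dose, route, age in days, sex or number of the animals, and each sample is described under 2 names that could be animals, libraries or runs. With 1 sample per group there was no spread between replicates, and no difference below has a replicate check. Values are FPKM, the fragments counted per length of transcript and per mapped fragments of the library, so that levels can be set side by side between genes of different length.

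S100 proteins are small calcium-binding proteins of the EF-hand type that mostly work as dimers. Calcium opens a surface on them that grips target proteins such as annexins, myosin or the tumour suppressor p53, and some are also secreted and act on cell surface receptors. In brain, S100B and S100A1 are known from astrocytes and neurons, S100A4, S100A6, S100A10 and S100A11 from connective tissue cells, vessels and glia, and S100A8 from neutrophils and monocytes. Lipocalin 2 belongs to another family. It is a secreted protein that holds siderophores, the small molecules with which bacteria and possibly cells carry iron, and it is a known product of reactive astrocytes and neutrophils.

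The tissue carried the transcripts of brain cells. All 8 neuronal markers with an ID, such as SYT1 and SNAP25, were above a mean of 1 FPKM, and the myelin markers with an ID summed to 9944 FPKM in control and 8744 with iron dextran. The table summed to 924070 FPKM in control and 850165 with iron dextran, and 16727 and 16865 IDs were above 0. The absolute depth is unknown. Among 690 genes above 0 in both samples and under 0.1 FPKM in control, 51.7% of the ratios of iron dextran to control lay within 0.05 log2 units of 1, 2 or 0.5 times the most common ratio, 0.953, as steps of whole fragments would give at similar depths.

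LCN2 and S100A4 were the members that stood furthest apart between the samples, and both were lower with iron dextran. LCN2 (ENSSSCG00000005638) had 7.42 FPKM in control and 2.49 with iron dextran, so the control level was 2.98 times the other. S100A4 (ENSSSCG00000006578), which binds non-muscle myosin and is known from motile fibroblasts and leukocytes, had 15.1 FPKM in control and 5.67 with iron dextran, a control level 2.67 times the other. The 2 genes had nearly the same difference of log2(FPKM + 1), at −1.27 each, a scale that understates the change of low genes. They took ranks 37 and 36 from the lowest difference among the 12557 genes whose mean FPKM was at least 1. In whole tissue, fewer cells of a type and less RNA per cell cannot be told apart.

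S100A6 and S100A10 were lower by less. S100A6 (ENSSSCG00000021084), or calcyclin, known from fibroblasts and astrocytes, had 29.3 FPKM in control and 20.1 with iron dextran, a control level 1.46 times the other and a log2 difference of −0.52. S100A10 (ENSSSCG00000006612), or p11, which does not bind calcium and carries serotonin receptors and ion channels to the cell surface together with annexin A2, had 58.1 and 45.2 FPKM, 1.28 times as much in control, and a log2 difference of −0.35. Both lay in the low tail of all genes without reaching 1.5-fold, S100A6 at percentile 2.02 and S100A10 at percentile 4.92 of the differences.

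S100A1 and S100A8 differed little between the samples. S100A1 (ENSSSCG00000031053), which tunes calcium release in muscle and nerve cells, had 2495 FPKM in control and 2336 with iron dextran. Its log2 difference of −0.10 turned to 0.03 with equal column totals, so it has no settled direction. In the RefSeq annotation of the later assembly Sscrofa11.1 the span of the gene overlaps that of S100A13, for which the table has no ID. The use of strand is not given, so reads from any transcribed sequence in both genes cannot be told apart. How much sequence that is was not tested, and the S100A1 level is uncertain. S100A8 (ENSSSCG00000006590), the calgranulin that pairs with S100A9 into the zinc-binding protein calprotectin, had 2.42 and 2.68 FPKM, a log2 difference of 0.11. S100A11 (ENSSSCG00000006610), a partner of annexin A1, was listed at 0 in both samples. An exact 0 can be a failed estimate in this table, since RPS21, a ribosomal protein gene that every cell uses, was also listed at 0 in both.

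**Figure D1:**
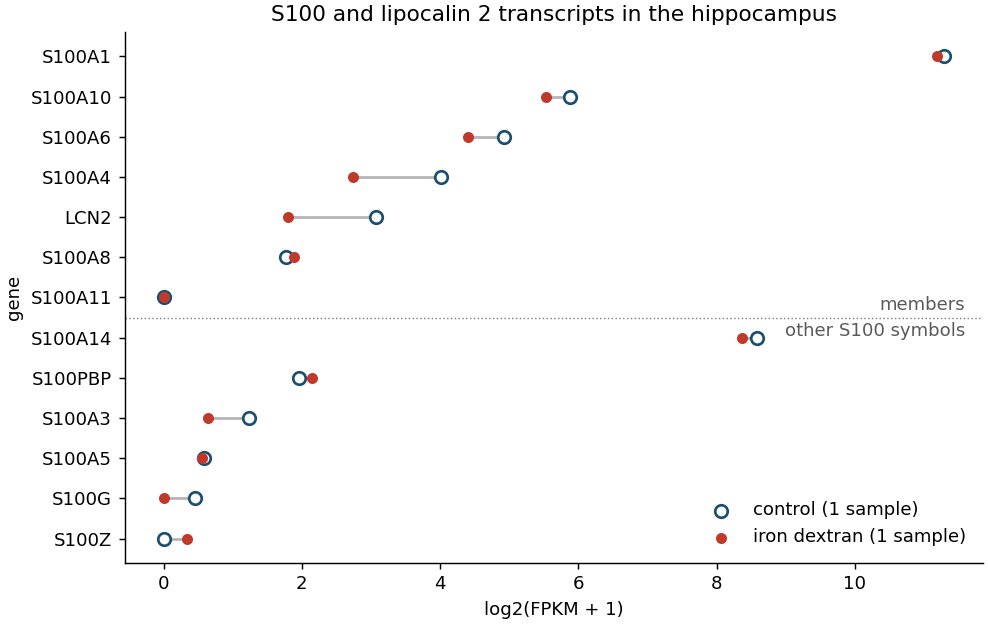
Levels of the 7 members and of 6 other genes with an S100 symbol on the log2(FPKM + 1) axis, with an open circle for the control sample, a filled circle for the iron dextran sample and a grey line between them. The longest lines among the members belong to S100A4 (15.1 and 5.67 FPKM) and LCN2 (7.42 and 2.49 FPKM).

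Of the 7 members, 6 had a mean FPKM of at least 1. Of these 6, 2 were at least 1.5-fold lower in iron dextran, LCN2 and S100A4, where 1.47% of the 12557 genes were lower by that much. Here and below, a count past 1.5-fold is made on FPKM + 1, which holds low genes back. By the plain ratio of FPKM, a count added after seeing the data, the same 2 members were at least 1.5-fold lower, where 2.85% of all genes were. None was at least 1.5-fold higher, where 2.47% of all genes were on FPKM + 1 and 4.81% by the plain ratio. The counts of the gene lists below are to be read beside these same shares. The same pair was at least 2-fold lower, against 0.422% of all genes. By sign, 5 of the 6 were below 0 and S100A8 was above it, where 51.0% of all genes were below 0 and 49.0% above. The median log2 difference of the 6 was −0.44, beside a median of −0.0046 and quartiles of −0.12 and 0.14 over all genes. These values chose the members, so the shares show where the members lie and support nothing further. Differences were wider among low genes. Of genes with a mean of 1 to under 5 FPKM, the range that holds LCN2, 2.74% were at least 1.5-fold lower, and of those from 5 to under 20 FPKM, the range of S100A4, 1.14% were. Of genes at 20 FPKM or more, which include S100A6, S100A10 and S100A1, 0.523% were.

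**Figure D2:**
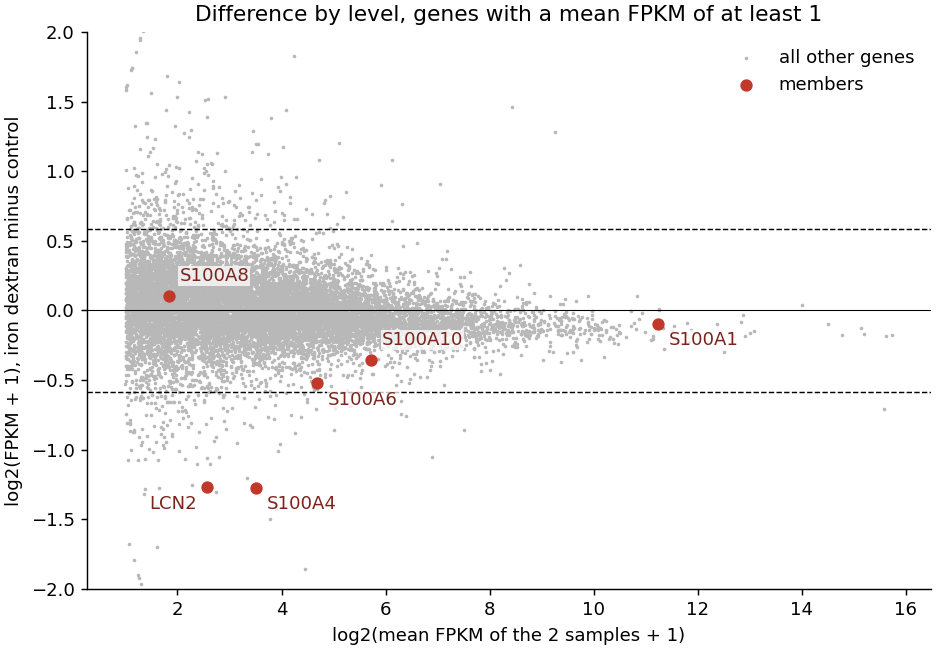
Iron dextran minus control, as the difference of log2(FPKM + 1), against the log2 of the mean FPKM plus 1, with 1 grey point per gene, red points for the 6 members with a mean FPKM of at least 1 and dashed lines at 1.5-fold. LCN2 and S100A4 lie below the lower line at −1.27, and 51 genes beyond 2 on the difference axis fall outside the plot.

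The order of levels was led by S100A1 in both samples, followed by S100A10, S100A6 and S100A4. S100A1 made up 95.7% of the summed FPKM of the members in control and 96.8% in iron dextran. S100A1 was at 42.9 times the level of S100A10 in control and at 51.6 times in iron dextran, the widest step among members above 0. LCN2 and S100A8 exchanged places at the lower end. The ratio of S100A8 to LCN2 was 0.327 in control and 1.08 in iron dextran. The ratio of S100A4 to S100A6 was 0.516 in control and 0.282 in iron dextran, while that of S100A6 to S100A10 was 0.505 and 0.444. Without replicates, none of the steps in this order can be set against a spread.

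Most S100 genes lie in 1 chromosome region, with other genes between some of them, and the members were set beside their neighbours there. RefSeq's order in Sscrofa11.1 gives 15 genes with an S100A symbol in this cluster, 9 of them with an ID here. By sign, 7 of the 9 were below 0, S100A8 was above it and S100A11 was listed at 0. Most of the 9 are members chosen by these values, so this count carries no test. Only S100A3, S100A5 and S100A14 are not members, and each was below 0. The means of S100A3, S100A5 and S100A11 were under the limit of 1 FPKM. The share of 51.0% below 0 was counted without such low genes, so it is not a like measure for the 9. With equal column totals, added after seeing the data, S100A1 and S100A5 turned above 0 and 5 were below it. The median difference of all genes was then 0.10. S100A4 sits between S100A3 and S100A5, followed by S100A6, and these 4 neighbours differed unequally. S100A3, a gene known from hair, had 1.34 FPKM in control and 0.560 with iron dextran, with a mean under 1. S100A5, known from olfactory neurons, had 0.5004 and 0.472 FPKM. Its ratio of iron dextran to control was 0.943. The most common ratio of genes under 0.1 FPKM in control, a range below S100A5, was 0.953. The control level was 2.40 times the other for S100A3, beside 2.67 for S100A4, but S100A3 was below the limit of 1 FPKM.

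S100A14 (ENSSSCG00000006582), in the cluster between S100A13 and S100A16 and known mainly from epithelia, had 384 FPKM in control and 329 with iron dextran, the second highest S100 level here. The ID took its symbol from a names table that is not tied to the build of the files, and whether its reads belong to this gene was not tested. Outside the cluster, S100G, a calcium carrier of the intestine, had 0.369 FPKM and was listed at 0 in iron dextran, and S100Z was listed at 0 in control and had 0.269 FPKM in iron dextran. S100PBP, which is no S100 protein but binds S100P, had 2.90 and 3.41 FPKM. Next to the cluster, CHTOP, which serves mRNA export, had 69.0 and 73.7 FPKM, and SNAPIN had no ID. On the other side THEM5 and C2CD4D had at most 0.104 FPKM. LCN2 lies on another chromosome. Its nearest neighbours with an ID, PTGES2 (33.6 and 33.97 FPKM), a prostaglandin synthase, and CIZ1 (10.3 and 10.4 FPKM), were nearly level between the samples.

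**Figure D3:**
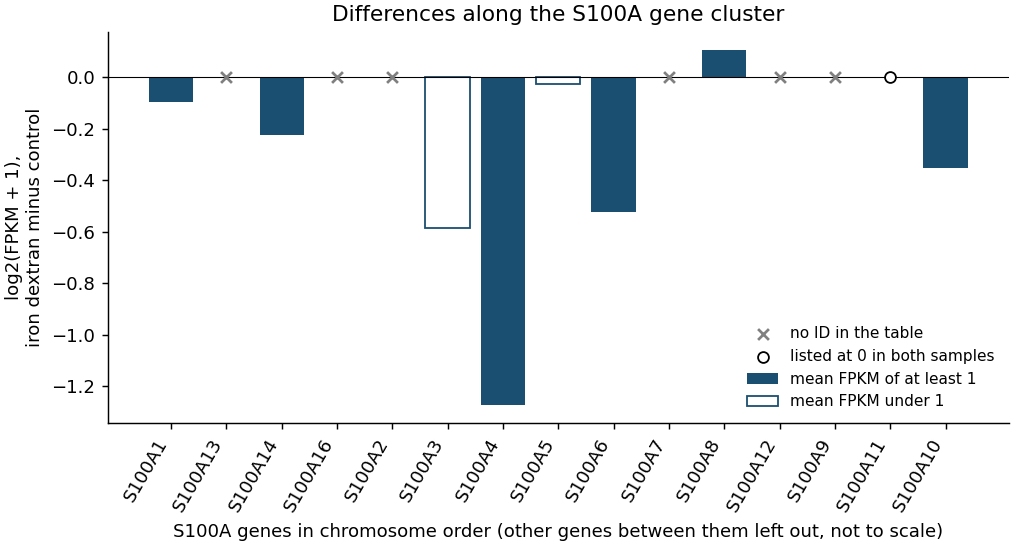
Iron dextran minus control, as the difference of log2(FPKM + 1), for the 15 S100A genes in chromosome order, as filled bars for a mean FPKM of at least 1, open bars for a lower mean, crosses for genes without an ID and a circle for S100A11, listed at 0. S100A4 at −1.27 is flanked by S100A3 at −0.59 and S100A5 at −0.03.

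The proteins that S100 members bind were mostly close to level, with annexin A2 as the gene furthest apart. Of 35 genes listed as binding partners, 27 had an ID and 23 a mean FPKM of at least 1, and none of these 23 was at least 1.5-fold lower or higher on FPKM + 1 or by the plain ratio. Their median log2 difference was −0.09, with 16 below 0 and 7 above, and it turned to 0.02 with the same column total. ANXA2, which forms a complex with S100A10, had 29.9 FPKM in control and 20.3 with iron dextran, a log2 difference of −0.54. The ratio of S100A10 to ANXA2 was 1.94 in control and 2.23 in iron dextran. ANXA1, the partner of S100A11, had 59.1 and 48.3 FPKM, a log2 difference of −0.28. Among partners on the other side of 0, the DNA translocase HLTF, a target of the S100A10 and annexin A2 complex, had 5.91 and 7.24 FPKM and the growth factor FGF1, released together with S100A13, had 29.6 and 34.003.

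The receptors through which secreted S100 proteins and LCN2 are held to act lay on both sides of 0. Of 15 listed, 10 had an ID and 8 a mean FPKM of at least 1, with 3 below 0, 5 above, none past 1.5-fold on FPKM + 1 and a median log2 difference of 0.08. By the plain ratio, MSR1 and CD68 were at least 1.5-fold higher. SLC22A17, described as a receptor that takes up LCN2, had 781 FPKM in control and 753 with iron dextran. Its transcript was at 105 times the level of LCN2 in control and at 303 times in iron dextran. The scavenger receptor MSR1 had 0.771 and 1.54 FPKM, the adhesion molecule ALCAM 5.19 and 7.16, the lysosomal macrophage protein CD68 0.868 and 1.36, and FGFR1 28.7 and 24.9. AGER, the receptor for advanced glycation end products that several S100 proteins bind, was at 0.0731 and 0.155 FPKM, below the limit of 1.

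Among lipocalins and the related binding proteins for fatty acids and retinoids, LCN2 was joined by both cellular retinoic acid binding proteins. Apart from LCN2, 12 of 20 listed genes had an ID and 9 a mean FPKM of at least 1. Of these 9, 2 were at least 1.5-fold lower on FPKM + 1 and none higher, with a median log2 difference of −0.16. Of all genes, 1.47% were lower and 2.47% higher by that much. By the plain ratio 3 were lower, with APOM added, and 1 was higher, C8G, where 2.85% of all genes were lower and 4.81% higher. The list was chosen with earlier results of these data known, so these counts carry no test. CRABP2 had 8.58 FPKM in control and 2.87 with iron dextran, and CRABP1 had 6.04 and 3.63, log2 differences of −1.31 and −0.61. APOM, a lipocalin of lipoprotein particles, had 2.17 and 1.17 FPKM, and C8G, a lipocalin of the complement system, had 2.21 and 3.56. The other secreted lipocalins stood on either side, with APOD at 277 and 213 FPKM and RBP4, the carrier of retinol in blood, at 30.6 and 37.1.

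The genes listed for the induction of LCN2 or as its partners lay on both sides of 0. Of 21 listed, 15 had an ID and 9 a mean FPKM of at least 1, with 4 below 0, 5 above and none past 1.5-fold on FPKM + 1, and a median log2 difference of 0.13. IL6ST, the shared receptor chain of the IL-6 family, had 1.83 FPKM in control and 2.79 with iron dextran, and was the only one of the 9 past 1.5-fold by the plain ratio. IL17RA, the IL-17 receptor, had 13.002 and 10.04 FPKM, and TNFRSF1A, a TNF receptor, 25.9 and 22.5. NFKBIZ, a nuclear cofactor needed for LCN2 transcription, was at 0.464 and 0.984 FPKM, below the limit of 1, and IL6 and NFKB1 were listed at 0 in both samples.

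Markers of reactive astrocytes, a list that includes LCN2 and S100A10, had a median slightly below 0 without those 2 members. Of the 12 others with a mean FPKM of at least 1, 8 were below 0, 4 above and none past 1.5-fold on FPKM + 1, and their median log2 difference was −0.12. SPHK1, a sphingosine kinase, had 1.95 FPKM in control and 1.09 with iron dextran, and was the only one at least 1.5-fold lower by the plain ratio. The protease inhibitor TIMP1 had 23.8 and 18.7 FPKM, the iron oxidase CP 10.3 and 8.36, and the hyaluronan receptor CD44 2.34 and 1.78. GFAP, the filament of astrocytes, had 1275 and 1145 FPKM. LCN2 had a larger log2 difference than any other gene measured on this list, but as a member it was chosen by these values, so this carries no test.

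Calcium-binding proteins of the EF-hand type outside the S100 family lay around 0. Of 34 listed, 28 had an ID and 27 a mean FPKM of at least 1, with 16 below 0, 11 above and none past 1.5-fold on FPKM + 1, though CALB1 was at least 1.5-fold higher by the plain ratio. Their median of −0.02 turned to 0.10 with the same column total. CALB1 had 0.802 FPKM in control and 1.56 with iron dextran, CHP1 had 5.69 and 3.88, PVALB, a marker of fast-spiking interneurons, had 105 and 84.4, and CALML4 had 1.76 and 1.24. Calmodulin, the general calcium sensor, was level, with CALM2 at 1956 and 1934 FPKM.

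**Figure D4:**
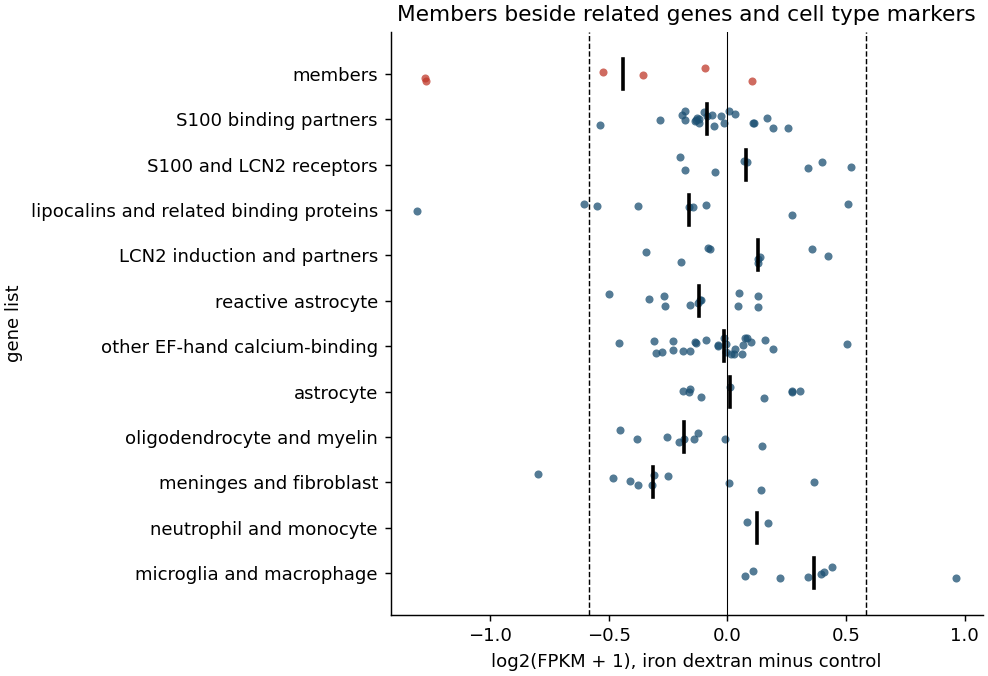
Iron dextran minus control, as the difference of log2(FPKM + 1), with 1 point per gene whose mean FPKM was at least 1, a black bar at the median of each list and dashed lines at 1.5-fold of FPKM + 1. The median of the 6 members (−0.44) lies below those of the binding partners (−0.09), the receptors (0.08) and the meningeal markers (−0.31). The members were chosen by these values, so this order of medians carries no test. Members are left out of the other lists.

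Markers of the cell types that carry these transcripts were read beside the members. Meningeal and fibroblast markers, cells in which S100A4, S100A6 and S100A10 are known, had a median log2 difference of −0.31 over 10 genes, with 7 below 0 and 3 above. The 11 with an ID summed to 74.8 FPKM in control and 65.9 with iron dextran, and none was at 0 in both. ISLR was the only one past 1.5-fold on FPKM + 1, at 3.19 and 1.40 FPKM, joined by SLC13A4 in the plain ratio. SLC13A4 had 2.05 and 1.18 FPKM, SLC6A13 had 5.395 and 3.82, and COL1A2 had 6.87 and 5.07, while PDGFRA, also a marker of oligodendrocyte precursors, had 4.54 and 6.13. The defining matrix gene DCN was level, at 24.2 and 24.3 FPKM. The part of meningeal tissue in the lower S100A4, S100A6, S100A10 and LCN2 values was not tested.

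Neutrophil and monocyte markers were read for LCN2 and S100A8. Without S100A8, 10 of 15 had an ID and 2 a mean FPKM of at least 1, ITGB2 (6.51 and 7.44 FPKM) and CD14 (10.97 and 11.7). The 10 with an ID summed to 18.4 FPKM in control and 20.6 with iron dextran, most of it from ITGB2 and CD14. MMP8 and CD177, defining neutrophil genes, were listed at 0 in both samples, which can be failed estimates. The others were under 1 FPKM and lay on both sides of 0. ELANE was listed at 0 in control and had 0.329 FPKM in iron dextran, MPO had 0.0919 and 0.196, and LYZ 0.344 and 0.569. MMP9 was listed at 0 in control and had 0.0276 in iron dextran. LTF had 0.311 and 0.172 FPKM and CSF3R 0.163 and 0.153. Transcripts of red cells, which mark blood in the tissue, were higher in iron dextran, with 4 of 9 having an ID, a sum of 189 and 519 FPKM, HBB at 183 and 506, HBM at 2.89 and 6.80 and ALAS2 at 3.29 and 5.78. Their part in the member values was not tested.

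Astrocyte markers, 9 of 12 with an ID, had a median of 0.01 and summed to 3530 and 3305 FPKM, with 4 below 0, 5 above and SLC1A3 at 116 and 143. Myelin markers had a median of −0.18 over 9 genes, with GJB1 at 24.9 and 17.9 FPKM. Microglial markers, all 8 above 0, had a median of 0.37, and P2RY12, a receptor of resting microglia, was the only one past 1.5-fold on FPKM + 1 (9.80 and 20.05 FPKM). By the plain ratio CSF1R (1.59 and 2.40 FPKM) and CD68 were past it too. Choroid plexus markers summed to 21.6 and 26.2 FPKM, most of it from TTR at 19.9 and 24.2. Of the 7 with an ID, 2 had a mean FPKM of at least 1, and the others lay on both sides of 0. Ependymal markers summed to 16.9 and 13.3, with FOXJ1 at 8.89 and 6.14. Of the neuronal markers CAMK2A alone was past 1.5-fold on either scale, at 1.995 and 3.93 FPKM. Endothelial markers summed to 32.0 and 29.4 FPKM and pericyte and smooth muscle markers to 67.1 and 62.6, with TEK, the only one of either list past 1.5-fold by the plain ratio, at 1.81 and 1.203 and DES at 2.76 and 1.86.

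The genes most like LCN2 and S100A4 were found by the distance between log2(FPKM + 1) values over the 2 samples, among genes with a symbol. Nearest to LCN2 was CRABP2 at a distance of 0.24, and LCN2 was at 0.865 times its level in each of the samples. HTRA3, a secreted protease (5.78 and 2.43 FPKM, distance 0.31), and DOK6, an adaptor of receptor kinases (5.81 and 1.86 FPKM, distance 0.42), came next. Nearest to S100A4 were the linker histone H1-3 (19.3 and 6.21 FPKM, distance 0.35), PHLDA2 (11.4 and 6.06 FPKM, distance 0.39) and MMD2 (13.3 and 8.24 FPKM, distance 0.499). With 1 value per sample and 2 samples, such likeness places genes at the same levels and says no more.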

How the data were processed

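RNA from hippocampus was sequenced in 1 control and 1 iron dextran sample. The authors deposited FPKM values, 1 column per sample. Columns were matched by the letter shared with the sample title. The submitters' processing notes name cutadapt 1.2.1, TopHat and the builds Sscrofa10.2 and susScr3. The sources used here do not give the program behind the FPKM values, the annotation, the use of strand or the way the 2 names of a sample were combined. A few abundant genes can shift all FPKM values: the 10 highest IDs took 36.7% and 34.0% of the totals.

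Symbols came from a table of Ensembl IDs and names, which matched 11804 of 25322 IDs, and gene order from RefSeq's Sscrofa11.1. Differences are log2(FPKM + 1), iron dextran minus control (Python 3.11.15, pandas 2.3.3). The code was checked on the control column with known differences put in, at a pseudocount of 0.01 after scaling by a trimmed mean. The main setting was not checked in this way. Counts and medians use a mean FPKM of at least 1 and a rule of 1.5-fold. With 1 sample per group no test was possible. Named genes are all members, all genes with an S100 symbol, up to 4 per list with the largest differences or past 1.5-fold, 3 nearest to LCN2 and to S100A4, and 2 beside the cluster; 1 gene that this rule takes is not reported here. APOD, RBP4, AGER, TNFRSF1A, NFKBIZ, GFAP, CALM2, DCN, the blood and neutrophil genes, RPS21 and the neighbours of LCN2 were added after their values were seen. Members and lists were chosen with earlier results of these data known. Alternatives were pseudocounts of 0.1 and 0.01, other filters, folds and scalings, and, added after seeing the data, centring in 20 expression bins. No table of sequences was used here.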

Additional observations from a re-analysis of the deposited data

How the results depend on the processing

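No paired analysis was possible because each group had 1 sample, and no replicate could be left out. The count of 2 members at least 1.5-fold lower held under both smaller pseudocounts, the 3 scalings, no filter and the rule of 2-fold, and under centring by expression bin, added after seeing the data. At a mean FPKM of at least 5 it was 1, where 0.846% of all such genes were lower, since LCN2, with a mean of 4.95 FPKM, was no longer counted. By a looser rule, from a log2 difference of 0.32, it was 4, where 5.96% of all genes were lower. The share of all genes lower by 1.5-fold was 2.64% with a pseudocount of 0.1 and 2.84% with 0.01. It was 1.05% to 1.54% under the 3 scalings, 1.11% with no filter and 1.82% with centring by expression bin. The count of members higher was 0 in all of these settings. The median of the members ran from −0.45 to −0.32. The log2 difference of LCN2 was −1.54 with a pseudocount of 0.1 and −1.57 with 0.01, and over the settings run it stayed between −1.57 and −1.18, while that of S100A4 stayed between −1.415 and −1.17. Of 36 values of single members, 2 changed sign, both of S100A1, to 0.03 with the same column total and to 0.0077 with centring by expression bin. The same column total moved the median of all genes by 0.11. It also turned the medians of the endothelial (0.0003), pericyte (0.0029) and neuronal (0.11) markers above 0. Depth and replicate spread are unknown, so no interval can be given, and values under 1 FPKM are the least certain.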
